A study of Mus musculus with 9 samples.

Results

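The genes of sterol and fatty acid synthesis were examined as 1 group in neutrophils, the phagocytes that make up much of the bone marrow. The group was set by a list of 43 gene symbols, with no filter on their measured values. It holds regulators and targets of the sterol regulatory element-binding proteins (SREBPs), a lipid arm downstream of the kinase complex mTORC1. Of the 43 genes, 25 were among the 7197 genes listed in the table, and 24 of these had a mean of at least 10 normalized counts and were tested, out of 6673 genes tested in all. Scap, at a mean of 8.08 normalized counts, was listed but fell under that mean. The 18 genes not listed, and not analysed here, were Srebf1, Mbtps2, Lpin1, Acat2, Mvk, Fdps, Lss, Tm7sf2, Dhcr7, Acaca, Fasn, Scd1, Scd2, Elovl6, Fads1, Fads2, Acsl3 and Abca1.

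The libraries came from bone marrow cells sorted as CD45+, CD11b+ and Ly6G+ from young mice aged 2 months. There were 5 Rragc+/+ libraries and 4 RragcS74N/+ libraries. RragcS74N/+ mice carry 1 wild-type allele of Rragc and 1 allele that was edited with Cas9 in exon 1, together with silent changes, so that RagC has asparagine in place of serine and takes an active form. RagC belongs to the Rag GTPases, which tell mTORC1 that nutrients are plentiful. The edit is carried by the whole animal and not by neutrophils alone. The study's text counts its young neutrophil samples in mice, and it describes more RragcS74N/+ mice than there are RragcS74N/+ libraries here. The labels give no sex, batch or pooling and tie no library to an animal, so p-values measure the spread between these libraries, which may be technical. The mRNA was read from its 3′ end, 1 position per transcript, so levels were not divided by gene length.

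In mammalian cells, sterol synthesis begins with acetyl-CoA and runs through mevalonate and squalene to lanosterol and cholesterol. When membrane sterol is plentiful, Insig proteins hold the complex of SREBP and Scap in the endoplasmic reticulum. When it is scarce, the complex moves to the Golgi apparatus, where proteases release the part of SREBP that enters the nucleus and turns on these genes. SREBP-2, from Srebf2, acts mainly on sterol synthesis, and SREBP-1, from Srebf1, mainly on fatty acid synthesis. mTORC1 is known to promote SREBP activity, in part by keeping lipin 1 out of the nucleus.

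The promoters of 4 genes on which the values below turn are shown for the letters they hold. Hmgcs1 encodes an early enzyme of the mevalonate pathway, Srebf2 and Insig1 are part of the regulatory loop, and Hsd17b7 is the gene whose genotypes did not overlap. Each sequence runs 5′ to 3′ on the gene's own strand from 250 bases before the start site to 50 after it, and is taken from RefSeq on assembly GRCm38.p6, which is not the assembly the authors aligned to. Capitals mark TCACNCCA, the core of the classical sterol regulatory element, in Hmgcs1 and Srebf2, and CACGTG, an E-box, in Insig1 and Hsd17b7. The windows are chr13:119690101-119690400 on the + strand for Hmgcs1, chr15:82147019-82147318 on the + strand for Srebf2, chr5:28071162-28071461 on the + strand for Insig1 and chr1:169969156-169969455 on the - strand for Hsd17b7.
Hmgcs1: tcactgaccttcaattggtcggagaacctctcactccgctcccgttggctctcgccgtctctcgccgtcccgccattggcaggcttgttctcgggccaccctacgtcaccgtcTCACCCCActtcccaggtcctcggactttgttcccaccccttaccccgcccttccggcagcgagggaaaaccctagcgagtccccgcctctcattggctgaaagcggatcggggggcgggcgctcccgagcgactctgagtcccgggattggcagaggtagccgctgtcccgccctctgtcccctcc
Srebf2: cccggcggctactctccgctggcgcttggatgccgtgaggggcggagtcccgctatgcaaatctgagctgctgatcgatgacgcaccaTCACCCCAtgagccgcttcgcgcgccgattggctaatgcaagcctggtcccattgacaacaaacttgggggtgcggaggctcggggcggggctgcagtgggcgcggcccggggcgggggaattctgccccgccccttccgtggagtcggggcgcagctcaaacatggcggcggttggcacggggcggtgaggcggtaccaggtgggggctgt
Insig1: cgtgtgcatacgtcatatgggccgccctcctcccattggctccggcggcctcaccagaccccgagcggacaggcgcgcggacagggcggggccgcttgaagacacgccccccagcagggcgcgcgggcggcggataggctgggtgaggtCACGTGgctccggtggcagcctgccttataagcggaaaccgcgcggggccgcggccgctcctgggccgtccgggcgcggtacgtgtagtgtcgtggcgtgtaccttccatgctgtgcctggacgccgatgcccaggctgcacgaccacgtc
Hsd17b7: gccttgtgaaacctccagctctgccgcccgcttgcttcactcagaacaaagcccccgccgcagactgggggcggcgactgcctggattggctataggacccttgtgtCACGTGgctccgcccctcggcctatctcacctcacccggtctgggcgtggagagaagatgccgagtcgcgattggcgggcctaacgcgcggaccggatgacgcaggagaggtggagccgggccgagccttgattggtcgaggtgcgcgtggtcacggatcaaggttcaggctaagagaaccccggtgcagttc

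The TCACNCCA match lay from -137 to -130 relative to the start site in Hmgcs1 and from -162 to -155 in Srebf2. The CACGTG match lay from -101 to -96 in Insig1 and from -143 to -138 in Hsd17b7. Promoter windows were found for 21 of the 25 listed genes, in 29 windows since some genes have several start sites, and both strands were searched. TCACNCCA was present in 4 of the 29 windows, or 13.8%, against 4.36% of all 32851 promoter windows, and the genes were Acsl1, Hmgcs1, Msmo1 and Srebf2. CACGTG was present in 7 of the 29, or 24.1%, against 7.15% of all windows, among them those of Insig1, Hsd17b7, Sc5d and Scap. CCAAT, the box read by the SREBP cofactor NF-Y, was present in 18 of the 29, or 62.1%, against 37.4%. TCACNCCA ends in the letters with which CCAAT begins, so matches of these motifs can overlap, and a match describes the sequence alone.

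No gene of the group differed between genotypes beyond the threshold set over all genes tested. With limma, 0 of the 24 genes tested had an adjusted p-value under 0.05, and the background was also 0 of 6673 genes, or 0%. At an unadjusted p-value below 0.05 the group had 0 of 24, against 388 of 6673 genes, or 5.81% (2.01% higher and 3.81% lower in RragcS74N/+). edgeR on the recovered reads likewise gave 0 of 24 against 6.89% of all genes, and DESeq2 gave 0 of 24 against 6.7%. Unadjusted limma p-values of the 24 genes ran from 0.0696 to 0.958, and adjusted ones were at least 0.713. A threshold of unadjusted limma p under 0.10 was chosen after the values were seen. At that threshold Hmgcs1, Sqle, Hsd17b7 and Stard4 were higher in RragcS74N/+, 4 of 24 against 5.65% of all genes. Pmvk was lower, 1 of 24 against 8.06%. With DESeq2, unadjusted p-values of these 5 genes ran from 0.105 for Pmvk to 0.149 for Hsd17b7. With edgeR, Pmvk, Hsd17b7 and Stard4 stayed under 0.10 (0.0696, 0.0944 and 0.0967), while Hmgcs1 and Sqle did not (0.129 and 0.137). With the trend of every library on 3′ GC content taken out, limma gave Stard4 0.0998, Sqle 0.101, Hmgcs1 0.23, Pmvk 0.26 and Hsd17b7 0.31.

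The log2 change was positive in 16 of the 24 genes, or 66.7%, against 53.4% of all genes tested. The median log2 change was 0.10 in the group and 0.02 over all genes, and the median size of the change regardless of sign was 0.19 against 0.21. The 95% interval of the log2 change lay within 1 in either direction for 17 of the 24 genes, and reached beyond it for 7. In this bulk measurement, fewer cells of a type and less RNA per cell cannot be told apart.

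**Figure D1:**
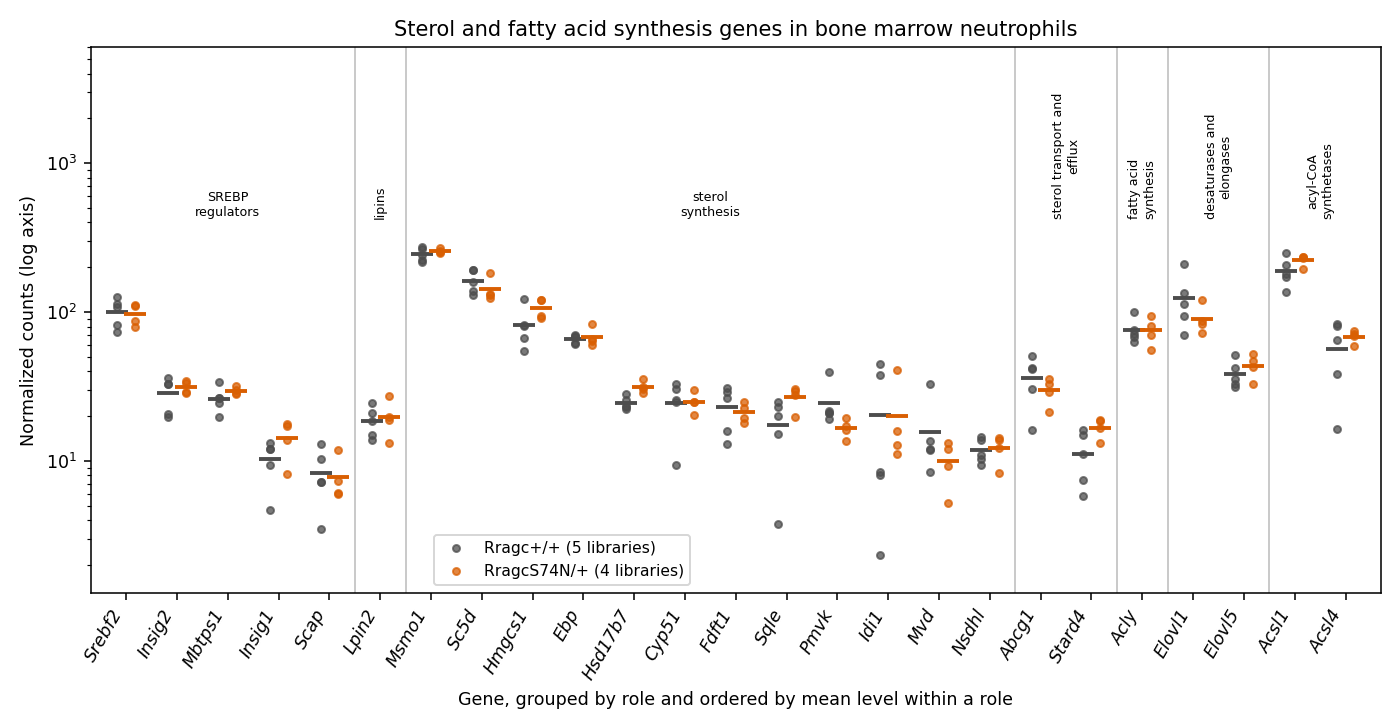
Normalized counts on a log axis for the 25 listed genes, grouped by role, with 1 point per library and a bar at the mean of 5 Rragc+/+ (grey) and 4 RragcS74N/+ (orange) libraries. Levels run from Msmo1, at a mean of 249.7 over all libraries, to Scap, at 8.08, and the genotypes overlap in every gene except Hsd17b7.

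Among the SREBP regulators, 5 of 7 genes were listed and 4 were tested, 3 with a positive and 1 with a negative log2 change (median 0.18). Srebf2, which encodes SREBP-2, measured 113, 126, 109, 82.0 and 73.2 normalized counts in Rragc+/+ and 111, 87.4, 111 and 79.4 in RragcS74N/+. Both genotypes covered nearly the same range, and the log2 change was -0.03 (SE 0.20, 95% interval -0.47 to 0.40; limma adjusted p = 0.967). Srebf2 was the only SREBP gene listed.

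The Insig proteins retain SREBP in the endoplasmic reticulum. Insig2 measured 36.2, 19.9, 20.6, 33.0 and 33.1 normalized counts in Rragc+/+ and 34.5, 33.5, 28.6 and 29.3 in RragcS74N/+. Insig1, itself an SREBP target, measured 13.2, 4.67, 9.37, 12.1 and 12.0 in Rragc+/+ and 13.9, 8.13, 17.3 and 17.8 in RragcS74N/+. For both genes Rragc+/+ replicates 2 and 3 were the lowest of their genotype and the genotypes overlapped. The log2 change was 0.17 for Insig2 (SE 0.23; limma adjusted p = 0.815) and 0.46 for Insig1 (SE 0.35; limma adjusted p = 0.733), with 4 to 23 reads of Insig1 per library. Without Rragc+/+ replicate 2 these were 0.06 and 0.23, without Rragc+/+ replicate 3 Insig2 was at 0.07, and without RragcS74N/+ replicate 2 Insig1 was at 0.69. Insig2 had more normalized counts than Insig1 in all 9 libraries, by a ratio of 1.65 to 4.25.

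Mbtps1, the Golgi protease that makes the first cut in SREBP, averaged 26.2 ± 5.14 normalized counts in Rragc+/+ (SD, n = 5) against 29.7 ± 1.68 in RragcS74N/+ (SD, n = 4). Its log2 change was 0.19 (SE 0.21; limma adjusted p = 0.782), and 0.0982 without Rragc+/+ replicate 2. Scap, the escort of SREBP, averaged 8.27 ± 3.59 normalized counts in Rragc+/+ (SD, n = 5) against 7.84 ± 2.79 in RragcS74N/+ (SD, n = 4), with 3 to 18 reads per library (exact permutation test over 126 splits, two-sided, p = 0.929). Of the lipins, phosphatidate phosphatases of which lipin 1 is tied to mTORC1, only Lpin2 was listed. It measured 13.8, 21.0, 24.4, 18.5 and 15.0 normalized counts in Rragc+/+ and 27.2, 13.2, 18.8 and 19.9 in RragcS74N/+, which overlapped widely (log2 change 0.07, SE 0.27; limma adjusted p = 0.936).

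Sterol synthesis was the role with most listed genes, 12 of 18, all of them tested. Of these, 8 had a positive and 4 a negative log2 change, with a median of 0.06 and a range of -0.53 to 0.79. Their normalized counts summed to 717 ± 86.0 (SD, n = 5, range 595 to 817) in Rragc+/+ and to 738 ± 6.22 (SD, n = 4, range 729 to 744) in RragcS74N/+. The 4 RragcS74N/+ sums lay inside the Rragc+/+ range and spread less, a difference in spread that was not tested.

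Most of that sum came from enzymes late in the pathway. Msmo1, which removes methyl groups from lanosterol derivatives, was the most abundant of all 25 genes and gave 31.2% to 37.5% of the sum. It measured 274, 264, 218, 243 and 223 normalized counts in Rragc+/+ and 269, 253, 248 and 256 in RragcS74N/+. Its level hardly varied, at 244 ± 24.6 (SD, n = 5) and 256 ± 8.80 (SD, n = 4), with a log2 change of 0.07 (SE 0.15, 95% interval -0.24 to 0.39; limma adjusted p = 0.882).

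Sc5d, the sterol desaturase that acts near the end of the pathway, ranked just below Msmo1 and Acsl1 in level. It measured 192, 131, 139.7, 191 and 158 normalized counts in Rragc+/+ and 133, 183, 130.3 and 124 in RragcS74N/+. RragcS74N/+ replicate 2 stood above the other 3 libraries of its genotype, and the genotypes overlapped (log2 change -0.19, SE 0.19; limma adjusted p = 0.772). Without that library the log2 change was -0.31. Msmo1 and Sc5d together made up 51.1% to 60.2% of the sum in each library. Ebp, the sterol isomerase, averaged 66.1 ± 4.19 normalized counts in Rragc+/+ (SD, n = 5) against 68.0 ± 10.2 in RragcS74N/+ (SD, n = 4), with a log2 change of 0.03 (SE 0.17; limma adjusted p = 0.961).

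Hsd17b7, a ketoreductase of cholesterol synthesis, was the one gene of the group whose genotypes did not overlap. It measured 25.7, 23.4, 22.5, 28.1 and 23.1 normalized counts in Rragc+/+ and 35.8, 28.5, 31.6 and 30.3 in RragcS74N/+. The highest Rragc+/+ library, at 28.1, and the lowest RragcS74N/+ library, at 28.5, differed by less than the value of 1 read. The means were 24.5 ± 2.34 (SD, n = 5) and 31.6 ± 3.12 (SD, n = 4), and the log2 change of 0.35 had an SE of 0.19 and a 95% interval of -0.06 to 0.76 (limma unadjusted p = 0.0881, adjusted p = 0.713). Over all genes tested, 0.674% did not overlap and were higher in RragcS74N/+, and 1.02% did not overlap and were lower. In the group these counts were 1 and 0 of 24. Hsd17b7 rested on 20 to 54 reads per library, and its variance within genotypes was 0.312 times that expected from counting alone. Its log2 change was 0.20 with the trend of every library on 3′ GC content taken out.

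Earlier in the pathway, Hmgcs1, the cytosolic HMG-CoA synthase, measured 81.0, 54.9, 67.5, 123 and 82.2 normalized counts in Rragc+/+. In RragcS74N/+ it measured 94.8, 91.5, 119.7 and 121. All 4 RragcS74N/+ libraries lay above the Rragc+/+ mean, while Rragc+/+ replicate 4 was the highest of all 9. The means were 81.7 ± 25.6 (SD, n = 5) and 107 ± 15.9 (SD, n = 4), with a log2 change of 0.42 (SE 0.22, 95% interval -0.06 to 0.90; limma unadjusted p = 0.0795, adjusted p = 0.713).

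Sqle, squalene epoxidase, a rate-limiting enzyme downstream of mevalonate, had the highest log2 change of the 24 genes with all libraries included. It measured 23.1, 15.2, 3.75, 24.9 and 20.1 normalized counts in Rragc+/+ and 19.9, 29.5, 27.9 and 30.3 in RragcS74N/+. Rragc+/+ replicate 3 was far below the rest, at 4 reads, and RragcS74N/+ replicate 1 lay within the Rragc+/+ range. The log2 change of 0.79 had an SE of 0.42 and a 95% interval of -0.11 to 1.70 (limma unadjusted p = 0.0819, adjusted p = 0.713). Without Rragc+/+ replicate 3 it was 0.36, below the 0.52 of Stard4 without that library.

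Idi1, the isomerase that makes dimethylallyl diphosphate, was the most variable gene of the group relative to counting. It measured 44.8, 2.34, 8.44, 8.04 and 38.1 normalized counts in Rragc+/+ and 15.9, 11.2, 12.8 and 40.8 in RragcS74N/+. In Rragc+/+ replicates 1 and 5 and RragcS74N/+ replicate 4 its level was far above that in the other 6 libraries, and both genotypes had means near 20.3 and 20.2. Its variance within genotypes was 15.9 times that from counting, and the log2 change of 0.42 had an SE of 0.66 (limma adjusted p = 0.850). The ratio of the means on the linear scale was 0.991.

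Fdft1, squalene synthase, measured 31.0, 29.2, 15.9, 26.5 and 13.03 normalized counts in Rragc+/+ and 17.9, 19.3, 22.6 and 25.1 in RragcS74N/+. The RragcS74N/+ libraries all fell within the Rragc+/+ range (log2 change -0.06, SE 0.28; limma adjusted p = 0.959). Cyp51, lanosterol demethylase, measured 9.37 normalized counts in Rragc+/+ replicate 3 and between 20.3 and 32.7 in the other 8 libraries (log2 change 0.12, SE 0.32; limma adjusted p = 0.913). Nsdhl, which acts after Msmo1 in demethylation, had a log2 change of 0.04 (SE 0.28; limma adjusted p = 0.976).

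Pmvk and Mvd, 2 genes of the mevalonate pathway named after their values were seen, had the lowest log2 changes of the group in the main fit. With the trend of every library on 3′ GC content taken out, Pmvk was at -0.26 and Mvd at -0.19. Elovl1, at -0.35, and Sc5d, at -0.30, were then lower. Hmgcs1, earlier in the same pathway, was at 0.42 in the main fit and at 0.27 with that trend taken out. Pmvk, phosphomevalonate kinase, measured 21.1, 39.7, 21.6, 19.3 and 21.1 normalized counts in Rragc+/+ and 17.2, 16.3, 19.6 and 13.6 in RragcS74N/+. Rragc+/+ replicate 2 stood well above its genotype, and RragcS74N/+ replicate 3 lay just inside the Rragc+/+ range (log2 change -0.49, SE 0.25; limma unadjusted p = 0.0750, adjusted p = 0.713). Mvd, mevalonate diphosphate decarboxylase, measured 11.9, 32.7, 8.44, 13.7 and 12.0 in Rragc+/+ and 9.28, 13.2, 12.1 and 5.23 in RragcS74N/+ (log2 change -0.53, SE 0.38; limma adjusted p = 0.724). Without Rragc+/+ replicate 2, the highest library for both genes, the log2 change was -0.31 for Pmvk and -0.24 for Mvd, and without RragcS74N/+ replicate 4 it was -0.28 for Mvd.

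**Figure D2:**
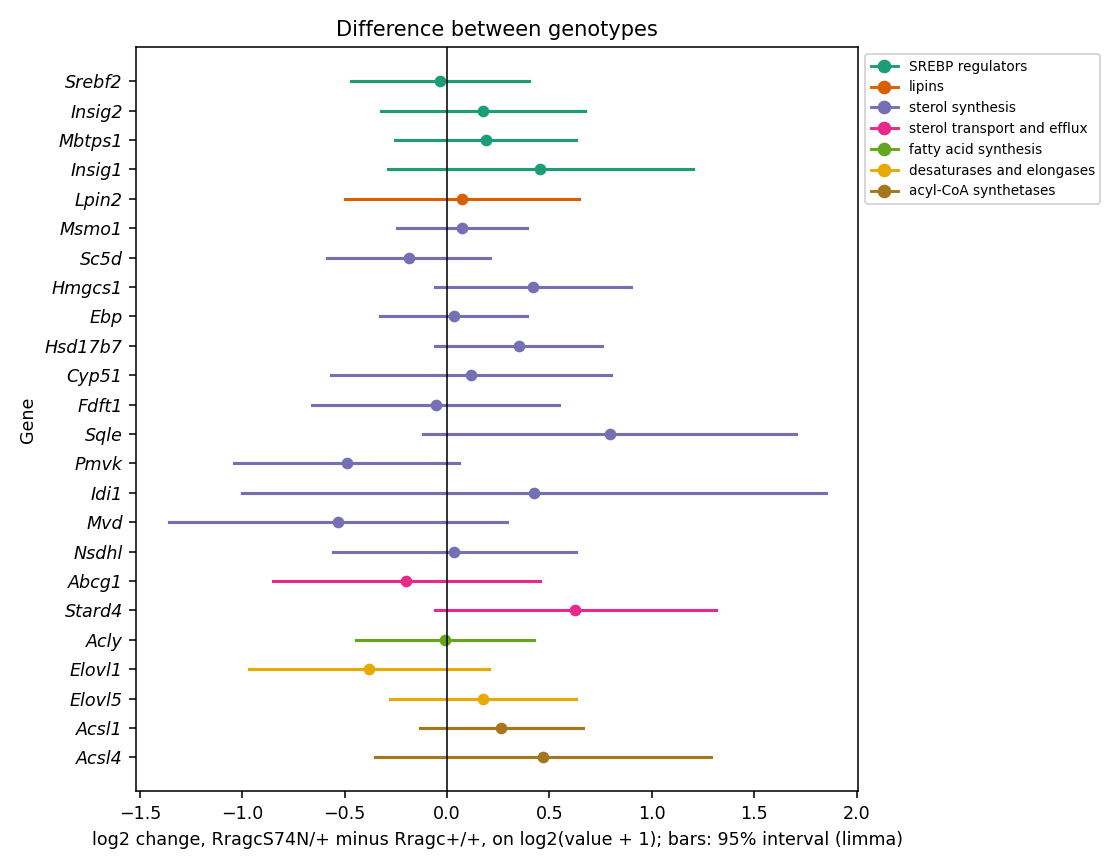
The log2 change on the log2(value + 1) scale (x axis, RragcS74N/+ minus Rragc+/+, points) and its 95% interval from limma (bars) for the 24 genes tested, coloured by role. Every interval includes 0, and the highest and lowest changes are 0.79 for Sqle and -0.53 for Mvd.

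For sterol transport and efflux, Stard4, which carries cholesterol between membranes and is an SREBP-2 target, had the smallest p-value of the 24 genes. It measured 11.2, 5.84, 7.50, 16.1 and 15.0 normalized counts in Rragc+/+ and 18.6, 13.2, 16.6 and 18.8 in RragcS74N/+. Of the 4 RragcS74N/+ libraries 3 lay above every Rragc+/+ library, with RragcS74N/+ replicate 2 within their range (log2 change 0.63, SE 0.32, 95% interval -0.06 to 1.31; limma unadjusted p = 0.0696, adjusted p = 0.713). Stard4 rested on 5 to 28 reads per library. Abcg1, a sterol exporter driven by liver X receptors, measured 41.5, 30.4, 42.2, 16.1 and 51.1 normalized counts in Rragc+/+ and 35.8, 21.4, 33.1 and 29.3 in RragcS74N/+. Its highest and lowest libraries were both Rragc+/+ (log2 change -0.20, SE 0.30; limma adjusted p = 0.846), and leaving out 1 library gave -0.46 without Rragc+/+ replicate 4 to -0.0507 without RragcS74N/+ replicate 2.

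Fatty acid synthesis was represented by Acly alone, ATP citrate lyase, which makes cytosolic acetyl-CoA for both lipid pathways. It measured 71.1, 67.8, 62.8, 99.7 and 76.2 normalized counts in Rragc+/+ and 94.8, 55.9, 80.6 and 70.0 in RragcS74N/+. The means were 75.5 ± 14.4 (SD, n = 5) and 75.3 ± 16.5 (SD, n = 4), and the log2 change of -0.01 had a 95% interval of -0.44 to 0.42 (SE 0.20; limma adjusted p = 0.993).

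Of the desaturases and elongases 2 of 7 were listed, and neither was a desaturase. Elovl1, which extends very long chains, measured 94.8, 209, 134, 113 and 70.2 normalized counts in Rragc+/+ and 120.0, 83.4, 86.6 and 72.1 in RragcS74N/+. Its level in Rragc+/+ replicate 2 was the highest of all 9 and its variance within genotypes was 15.2 times that from counting (log2 change -0.38, SE 0.27; limma adjusted p = 0.724). Without that library its log2 change was -0.17, and without Rragc+/+ replicate 5 it was -0.56. Elovl5, which extends polyunsaturated chains, averaged 38.7 ± 8.21 normalized counts in Rragc+/+ (SD, n = 5) against 43.7 ± 7.95 in RragcS74N/+ (SD, n = 4), with a log2 change of 0.18 (SE 0.21; limma adjusted p = 0.798).

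The acyl-CoA synthetases activate fatty acids for use in other pathways. Acsl1, second in level among the 25 genes, measured 208, 136, 172, 182 and 248 normalized counts in Rragc+/+ and 230.1, 196, 233 and 235 in RragcS74N/+. All 4 RragcS74N/+ libraries lay above the Rragc+/+ mean but below Rragc+/+ replicate 5 (log2 change 0.27, SE 0.19, 95% interval -0.13 to 0.66; limma adjusted p = 0.724). Acsl4, which prefers arachidonic acid, measured 83.0, 16.4, 38.4, 65.1 and 81.2 normalized counts in Rragc+/+ and 69.0, 59.0, 74.6 and 71.1 in RragcS74N/+. Rragc+/+ replicates 2 and 3 were low and the other 3 Rragc+/+ libraries were within or above the RragcS74N/+ range (log2 change 0.47, SE 0.38; limma adjusted p = 0.740). Without Rragc+/+ replicate 2 the log2 change was 0.09 for Acsl4 and 0.15 for Acsl1.

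The libraries differed within a genotype for some of these genes more than for others. The variance within genotypes was more than 5 times that from counting for 6 genes, namely Idi1, Elovl1, Acsl4, Hmgcs1, Acsl1 and Sc5d. The median of this ratio was 2.18 in the group and 3.78 over all genes tested. The ratio was not compared at equal levels, and 9 of the 25 genes lay above the median level of all genes tested, 53.5 normalized counts. Rragc+/+ replicate 2 was the lowest of the 9 libraries for 10 of the 25 genes and the highest for 5. Rragc+/+ replicate 3 and RragcS74N/+ replicate 4 were each the lowest for 4 of the 12 sterol synthesis genes.

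**Figure D3:**
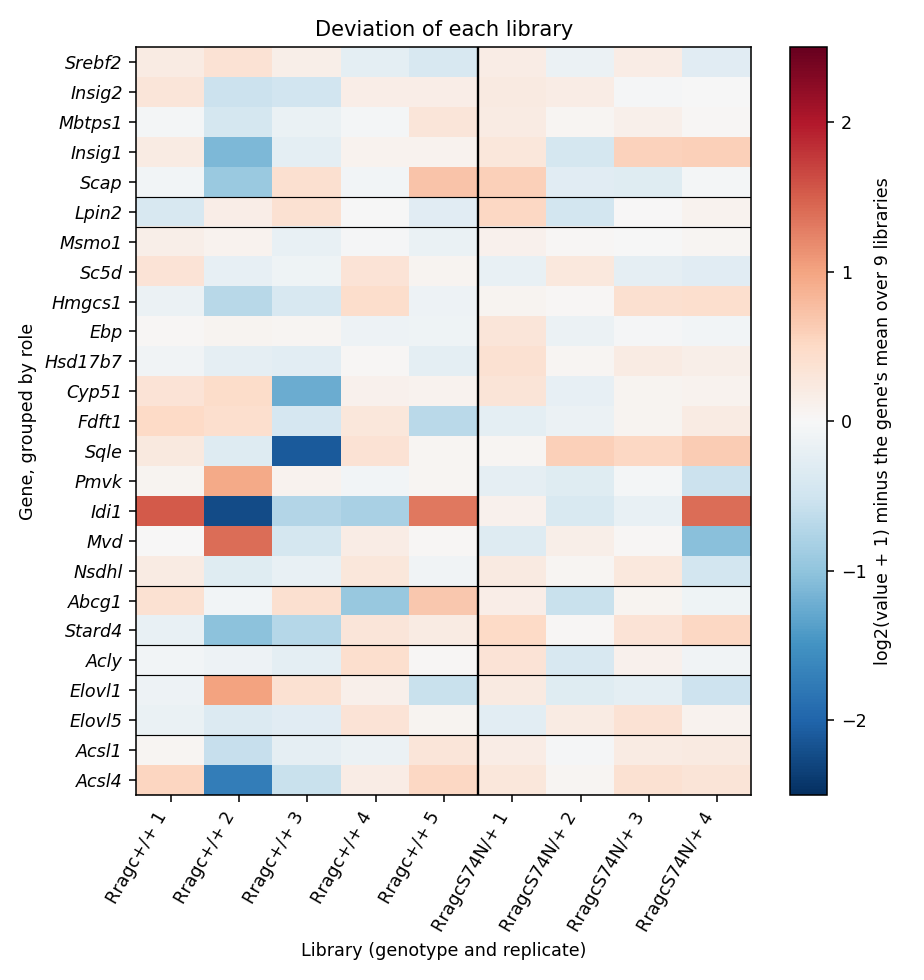
Deviation of each library (columns) from the gene's mean over 9 libraries on the log2(value + 1) scale, for the 25 listed genes grouped by role (rows), red above and blue below the mean. The deepest blue cells are Sqle in Rragc+/+ replicate 3 (3.75 normalized counts) and Idi1 in Rragc+/+ replicate 2 (2.34), and no role is uniformly red or blue on either side of the line between genotypes.

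The remaining library values bear on these comparisons as follows. Recovered reads over the listed genes ran from 1214295 in Rragc+/+ replicate 2 to 1973957 in Rragc+/+ replicate 1, and these totals cover the listed genes only. Rragc itself averaged 71.0 ± 10.3 normalized counts in Rragc+/+ (SD, n = 5) against 65.8 ± 9.52 in RragcS74N/+ (SD, n = 4) (log2 change -0.11; limma adjusted p = 0.860), and gene counts do not tell the alleles apart. All 10 markers of sorted and mature neutrophils were listed, with Ly6g, Itgam and Ptprc among them. Of the markers of immature neutrophils 6 of 11 were listed, without Mpo, Elane, Prtn3, Ctsg and Ms4a3. Rragc+/+ replicate 2 had the lowest mean Spearman correlation with the other libraries, 0.901 against 0.935 to 0.954. The 3 listed of 7 monocyte and macrophage markers summed to 234 to 495 normalized counts in Rragc+/+, highest in replicate 2, and to 227 to 290.4 in RragcS74N/+. The 7 listed of 8 erythroid markers summed to 1091 to 5609 in Rragc+/+ and 379 to 2158 in RragcS74N/+, and 5 of the 6 tested were lower in RragcS74N/+ at an unadjusted p-value under 0.05 while 0 passed the adjusted threshold in limma. The 6 listed of 8 eosinophil and basophil markers summed to 124 to 441 and 129 to 594, the 14 listed of 15 cell cycle genes to 1939 to 4333 and 1877 to 4274, and 1 of 7 B cell, 1 of 6 T and NK cell and 0 of 4 platelet markers were listed. The part of other cells in the values of the lipid genes was not tested.

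Whether sterol genes moved together from library to library was examined for 8 pairs, of which 5 had both genes listed. Genotype groups held under 6 libraries, so no value within a genotype was computed. Over 9 libraries Hmgcs1 and Insig1 had a Pearson r of 0.812 (exact permutation test, p = 0.00653, adjusted over the 5 pairs p = 0.0327) and a Spearman rho of 0.683 (exact permutation test, p = 0.0503, adjusted p = 0.126). Without Rragc+/+ replicates 2 and 3, the 2 libraries farthest from the median of Hmgcs1, r was 0.505 (exact permutation test, p = 0.250). That value rests on fewer libraries and a narrower range of Hmgcs1, so it cannot decide whether the relation holds without that pair. Without replicate 2 alone r was 0.629 (exact permutation test, adjusted p = 0.236), and without replicate 3 alone it was 0.820 (exact permutation test, adjusted p = 0.0367). With the genotype means removed, r over 9 libraries was 0.758.

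The other 4 pairs did not pass the adjusted threshold. Hmgcs1 and Sqle had r = 0.634 (exact permutation test, p = 0.0539, adjusted p = 0.135) and rho = 0.717 (exact permutation test, p = 0.0369, adjusted p = 0.126), and r was 0.588 without the same 2 libraries. Hmgcs1 and Srebf2 had a negative r of -0.516 (exact permutation test, p = 0.153, adjusted p = 0.254) and a rho of -0.517 (exact permutation test, p = 0.162, adjusted p = 0.270), and r was -0.11 without those libraries. Hmgcs1 and Idi1 had r = 0.415 (exact permutation test, p = 0.267, adjusted p = 0.334) and rho = 0.167 (exact permutation test, p = 0.678, adjusted p = 0.847), and the sign turned to -0.462 without them. Hmgcs1 and Fdft1 had r = 0.0848 (exact permutation test, p = 0.827, adjusted p = 0.827) and rho = 0.0333 (exact permutation test, p = 0.948, adjusted p = 0.948), with r = 0.380 without them.

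After these values were seen, Hmgcs1 was set against each of the other 24 listed genes. Stard4 had the highest r, 0.898 (exact permutation test, p = 7.91e-04, adjusted over 24 genes p = 0.0190), and rho was 0.867 (exact permutation test, p = 0.00451, adjusted p = 0.108). Without Rragc+/+ replicates 2 and 3 that r was 0.657 (exact permutation test, p = 0.115). By Pearson 1 of 24 genes and by Spearman 0 of 24 passed the adjusted threshold, and rho was positive for 14 genes and negative for 10. Pmvk, an enzyme of the same pathway, had a negative r of -0.783 (exact permutation test, p = 0.00767, adjusted p = 0.0614) and a rho of -0.800 (exact permutation test, p = 0.0138, adjusted p = 0.111), with r = -0.437 without those 2 libraries.

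**Figure D4:**
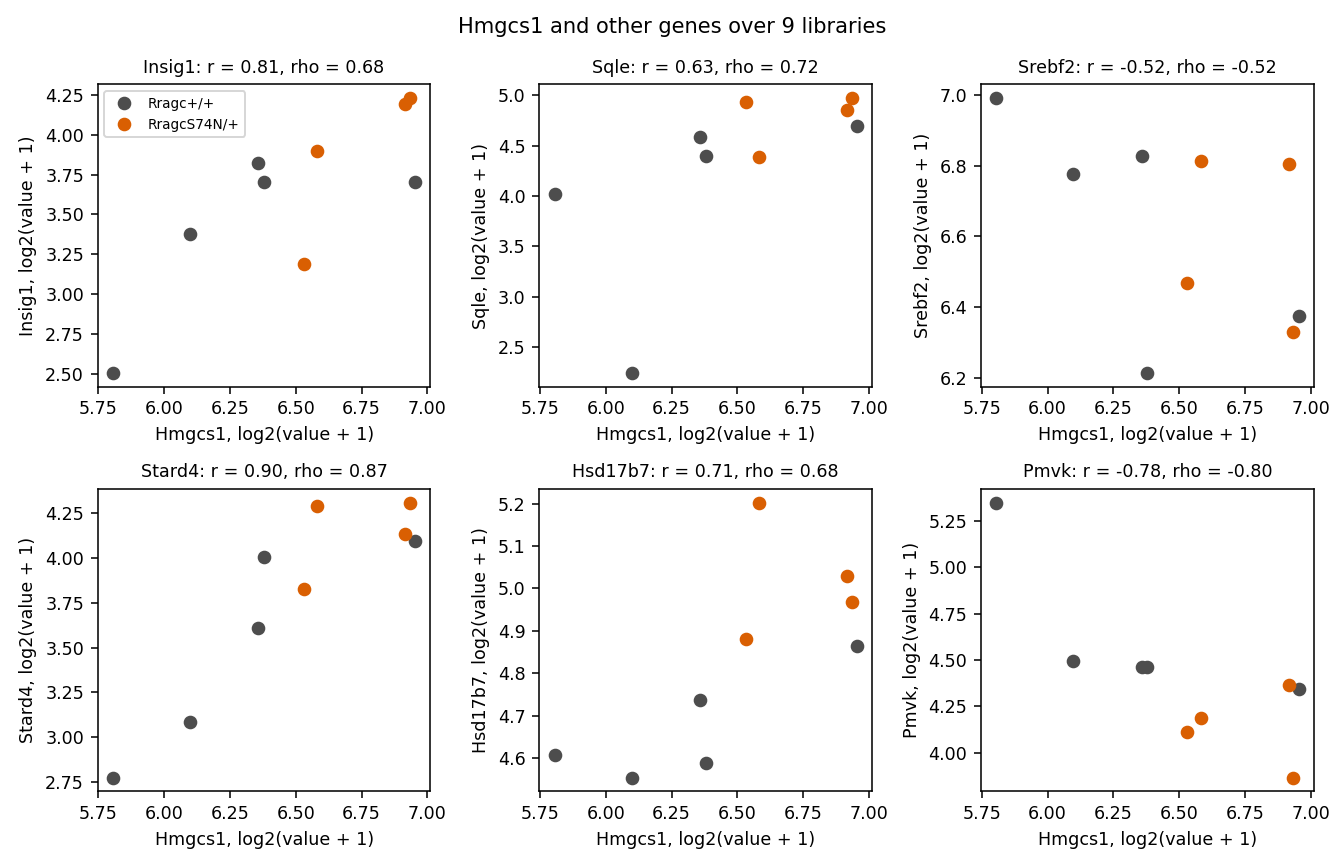
Hmgcs1 (x axis) against 6 other genes (y axes), both as log2(value + 1), with 1 point per library in grey for Rragc+/+ and orange for RragcS74N/+. Rragc+/+ replicates 2 and 3 are the lowest libraries on the x axis, and Srebf2 and Pmvk slope the opposite way to Insig1, Sqle, Stard4 and Hsd17b7.

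Neighbouring lipid pathways were taken from 6 lists of 131 genes, of which 93 were listed and 88 tested. With limma, 0 of the 88 had an adjusted p-value under 0.05. Unadjusted p-values were under 0.05 for 8 of 88, or 9.09% against the background of 5.81%, 7 of them lower and 1 higher in RragcS74N/+. Of all genes tested, 3.81% were lower and 2.01% higher at that p-value, and 53.4% had a positive log2 change. In the prenyl branch, which shares its precursors with sterols, 0 of 8 tested genes reached that p-value, 7 had a positive and 1 a negative log2 change, and the median was 0.15. The other fatty acid synthesis enzymes gave 0 of 10, with 8 positive, 2 negative and a median of 0.12.

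The list of sterol-regulated degradation and SREBP cofactors gave 1 of 15 tested genes, or 6.67% against 5.81% of all genes tested. This was Aup1, a lipid droplet protein that takes part in sterol-driven degradation, which averaged 65.9 ± 23.2 normalized counts in Rragc+/+ (SD, n = 5) against 42.0 ± 8.67 in RragcS74N/+ (SD, n = 4) (log2 change -0.58; limma unadjusted p = 0.0407, adjusted p = 0.713). Without Rragc+/+ replicate 2 the log2 change was -0.42 and the unadjusted limma p-value 0.0941. The median of that list was 0.06, with 9 positive and 6 negative.

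Cholesterol storage, oxysterol and liver X receptor genes gave 3 of 16, or 18.75% against 5.81% of all genes tested, with a median of 0.01. Npc2, which hands cholesterol out of the lysosome, measured 207, 363, 265, 187 and 136 normalized counts in Rragc+/+ and 131, 151, 154 and 123 in RragcS74N/+ (log2 change -0.65; limma unadjusted p = 0.0175, adjusted p = 0.713). Lipa, lysosomal acid lipase, averaged 76.8 ± 17.2 normalized counts in Rragc+/+ (SD, n = 5) against 52.5 ± 5.96 in RragcS74N/+ (SD, n = 4) (log2 change -0.52; limma unadjusted p = 0.0243, adjusted p = 0.713). Osbpl8, a lipid transfer protein, averaged 79.2 ± 20.7 normalized counts in Rragc+/+ (SD, n = 5) against 106.9 ± 10.8 in RragcS74N/+ (SD, n = 4) (log2 change 0.47; limma unadjusted p = 0.0493, adjusted p = 0.713). Npc2 was highest in Rragc+/+ replicate 2, where the sum of the 3 listed of 7 monocyte and macrophage markers was also highest. A link between the 2 was not tested. Without that library the log2 change was -0.47 for Npc2 and -0.44 for Lipa (limma unadjusted p = 0.0347 and 0.0490). Osbpl8 without the same library was at 0.29, with an unadjusted limma p-value of 0.107. With the trend of every library on 3′ GC content taken out, log2 changes were -0.59 for Npc2, -0.57 for Lipa and 0.31 for Osbpl8. Unadjusted limma p-values were then 0.0198, 0.0136 and 0.117.

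Fatty acid oxidation genes gave 0 of 17, yet 14 had a negative and 3 a positive log2 change, with a median of -0.25. That median was -0.10 without Rragc+/+ replicate 2 and -0.14 with the trend of every library on 3′ GC content taken out. Glycerolipid and lipid droplet genes gave 4 of 22, or 18.2%, all lower in RragcS74N/+, with 17 negative, 5 positive and a median of -0.12. Of all genes tested, 3.81% were lower at that p-value and 53.4% had a positive log2 change.

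The 3 with the smallest p-values were enzymes of glycerolipid breakdown and synthesis. Lipe, hormone-sensitive lipase, measured 76.4, 123, 106, 118 and 82.2 normalized counts in Rragc+/+ and 55.0, 71.2, 82.1 and 44.9 in RragcS74N/+ (log2 change -0.68; limma unadjusted p = 0.00829, adjusted p = 0.713). Mgll, monoglyceride lipase, averaged 178 ± 29.9 normalized counts in Rragc+/+ (SD, n = 5) against 127 ± 16.4 in RragcS74N/+ (SD, n = 4) (log2 change -0.47; limma unadjusted p = 0.0165, adjusted p = 0.713). Agpat4, an acyltransferase, averaged 29.3 ± 9.92 normalized counts in Rragc+/+ (SD, n = 5) against 17.4 ± 4.93 in RragcS74N/+ (SD, n = 4) (log2 change -0.70; limma unadjusted p = 0.0235, adjusted p = 0.713). All 4 RragcS74N/+ libraries were below the Rragc+/+ mean for each of these 3 genes, and the genotypes overlapped. The genes were chosen by p-value in the same libraries, so this adds no separate support. With the 3′ GC trend removed, the log2 changes were -0.25 for Lipe, -0.29 for Mgll and -0.49 for Agpat4. Unadjusted limma p-values were then 0.196, 0.0723 and 0.0738, and the median of the list was -0.02. Without Rragc+/+ replicate 2 the log2 changes were -0.60, -0.39 and -0.68 (limma unadjusted p = 0.0166, 0.0344 and 0.0363), with a list median of -0.10.

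**Figure D5:**
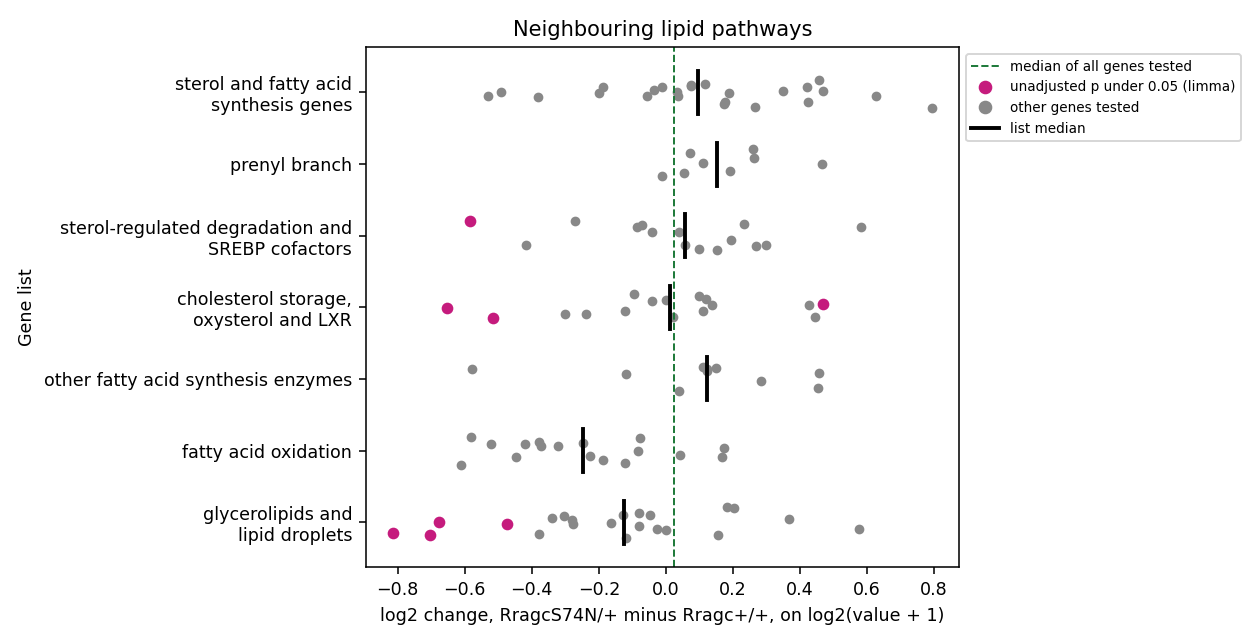
The log2 change of each gene tested (points, x axis, RragcS74N/+ minus Rragc+/+) in the sterol and fatty acid synthesis group and in 6 neighbouring lists, with the list median as a black bar and the median of all genes tested, 0.02, as a dashed line. Points in magenta have an unadjusted limma p-value under 0.05, of which there are 0 in the sterol and fatty acid synthesis group and 8 in the other lists, 7 of them left of 0.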

How the data were processed

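Neutrophil mRNA from 5 Rragc+/+ and 4 RragcS74N/+ libraries was primed with oligo-dT, and second strands carried molecular identifiers. Per the study's methods and the submitters' processing notes, the authors ran the nextpresso pipeline with FastQC (0.11.7), aligned reads to GRCm39 with TopHat2 (2.0.10), Bowtie (1.0.0) and SAMtools (1.9), and counted them by strand with HTSeq (0.6.1) on GENCODE vM26. The deposited values are a signal: gene read counts that the authors divided by 1 size factor per library. Collapsing by identifier and the filter that chose the listed genes are not given in the sources used here, and alignments with several hits were allowed, so genes with near-identical copies are uncertain. Listed genes each had reads in 7 or more libraries and at least 8 reads in the best one, so scarce genes are under-represented.

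Dividing by the value of 1 read gave whole numbers throughout (100% within 0.01), or 1214295 to 1973957 recovered reads per library. Replicates of a genotype differed by more than sampling noise (chi-square per degree of freedom at least 5.70), so none was the same library read again. This cannot tell whether libraries came from the same animal, and pairs across genotypes were not compared. Labels gave the genotypes, and replicate numbers follow accession order. Values were tested as log2(value + 1), which understates changes of low genes, with limma (3.58.1, R 4.3.3, trended moderation, genotype alone) for genes averaging at least 10, and p-values were adjusted by Benjamini-Hochberg over all genes tested at a threshold of 0.05. All permutation tests were two-sided. The procedure was tested on simulated counts, in which changed genes had a log2 change of 1 or 2 in either direction. It called 55.8% of 95 genes at 1 and 100% of 95 at 2, with 7 false calls. Smaller changes were not simulated. The genes and lists were chosen with earlier results of these data known. Genes are given in full where unadjusted p was under 0.05 or genotypes did not overlap, for the 3 highest levels, the highest of each role, the Srebf, Insig and Scd genes and the pairs, and neighbouring lists name at most 3 genes by smallest p under 0.05. Other genes given in full, and Plin2, were chosen after their values were seen. Alternatives were the pseudocount, filter, scaling, array quality weights, edgeR (4.0.16), DESeq2 (1.42.0), removal of each library, and a correction for the trend of every library on GC content in the last 500 nucleotides of transcripts (GRCm38 models, matched by symbol for 7067 of 7197 genes, 98.2%).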

Additional observations from a re-analysis of the deposited data

Results flagged for a closer look

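In 5 of 50 groups of libraries, a gene's highest or lowest library stood apart from the other libraries of its genotype. By chance 2.5 groups would be found. The measure was Dixon's gap on log2(value + 1), the distance to the nearest library divided by the whole range. Levels beside the gaps below are normalized counts, and gaps taken on that scale would differ. Pmvk in Rragc+/+ replicate 2 had a gap of 0.848, at 39.7 normalized counts against 21.6 for the nearest library. Cyp51 in Rragc+/+ replicate 3 had a gap of 0.782, at 9.37 against 25.1. Sqle in the same library had a gap of 0.723, at 3.75 against 15.2, and that value rests on 4 reads. Sc5d in RragcS74N/+ replicate 2 had a gap of 0.834, at 183 against 133, and Acsl1 in that library had a gap of 0.880, at 196 against 230.1. The cause was not tested.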

How the results depend on the processing

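No paired analysis was possible because no label numbers the replicates. Under all 18 alternatives, 9 of them leaving out 1 library, 0 genes of the group and 0 of all genes tested had an adjusted p-value under 0.05. Leaving out 1 library gave 0 to 3 genes of the group with an unadjusted p-value under 0.05 (3 without Rragc+/+ replicate 4, namely Hmgcs1, Sqle and Stard4, and 2 without Rragc+/+ replicate 5, Stard4 and Elovl1), and array quality weights gave 1, Sqle. Over all genes the count of 388 became 255 with the 3′ GC trend removed, 769 with array weights and 191 with a mean of at least 50, where 3475 genes were tested and the share was 5.50% against 5.81%, and ran from 201 without Rragc+/+ replicate 2 to 907 without Rragc+/+ replicate 5 (641, 224, 256 and 224 without Rragc+/+ replicates 1 and 3 and RragcS74N/+ replicates 2 and 4). The 8 genes of neighbouring lists became 3 with the GC trend removed. These were Npc2, Lipa and Plin2 of the glycerolipid and lipid droplet list (log2 change -0.73 for Plin2). Their number ran from 3 without RragcS74N/+ replicate 4 and 5 without RragcS74N/+ replicate 1 to 12 without Rragc+/+ replicate 5. The SREBP regulator median of 0.18 became -0.0339 with a mean of at least 50, which left Srebf2 alone.

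Of 417 log2 changes of the 24 genes under alternatives, 386 kept their sign and 31, in 9 genes, turned. With the GC trend removed they were Srebf2 0.21, Fdft1 0.0783, Cyp51 -0.0505, Msmo1 -0.0535 and Nsdhl -0.0456. DESeq2 gave Idi1 -0.0257 and Acly 0.0069, edgeR Idi1 -0.10, and array weights Lpin2 -0.15 and Ebp -0.0233. Leaving out 1 library, Srebf2 ran from -0.14 to 0.0572, Fdft1 from -0.23 to 0.0645, Nsdhl from -0.044 to 0.19, Acly from -0.13 to 0.12, Lpin2 from -0.0872 to 0.24, Cyp51 from -0.18 to 0.24, Ebp from -0.0652 to 0.0881 and Idi1 from -0.0905 to 0.85.

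The r of Hmgcs1 and Insig1 lost the threshold with the GC trend removed (0.723), with genotype means removed, an alternative added after the data were seen (0.758), without the 2 farthest libraries (0.505), and without Rragc+/+ replicate 2 (0.629) or 5 (0.826) or RragcS74N/+ replicate 1 (0.815), 3 (0.778) or 4 (0.774). The highest r was 0.872, without Rragc+/+ replicate 4. Without Rragc+/+ replicate 5 or RragcS74N/+ replicate 1, r was above the 0.812 of all libraries, and the adjusted p over 8 libraries was 0.0547 and 0.0532 (exact permutation tests). Leaving out 1 library, r of Hmgcs1 and Sqle ran from 0.594 to 0.819 and passed without Rragc+/+ replicate 3, Hmgcs1 and Idi1 from -0.0592 without Rragc+/+ replicate 2 to 0.588 (-0.462 without the 2 farthest), and Hmgcs1 and Fdft1 from -0.0753 without Rragc+/+ replicate 3 to 0.506 (-0.0344 without Rragc+/+ replicate 4). The r of Hmgcs1 and Srebf2 ran from -0.706 without Rragc+/+ replicate 5 to -0.283 without Rragc+/+ replicate 2. It was -0.194 with columns rescaled to the same total and -0.158 with the GC trend removed. For Hmgcs1 and Pmvk those 2 values were -0.60 and -0.664. The causes were not tested. Depth limits the low genes, since Idi1, Sqle, Insig1 and Stard4 had as few as 2, 4, 4 and 5 reads in a library.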
